A study of Mus musculus with 6 samples.

Results

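Transcripts of 10 genes of bone-forming cells were followed in CD73+CD105+ and CD73+CD105- cells of mouse bone marrow. The genes were chosen as a list of osteoblast and osteocyte genes: Runx2, Dlx5, Sp7 and Alpl of the early lineage, and Ibsp, Spp1, Ifitm5, Dmp1, Phex and Mepe of the late lineage. For each gene the probe set with exactly 1 gene symbol and the highest mean over the 6 arrays was read. This gave 8 measured genes among the 19938 genes of the arrays, while Runx2 and Spp1 were not analysed here. The CD73+CD105+ group (n = 3) and the CD73+CD105- group (n = 3) were both sorted from dissociated primary bone marrow as cells that lacked CD45, a leukocyte protein, and Ter119, a red cell lineage antigen, and that carried CD73, an ecto-enzyme that forms adenosine. The groups differed in CD105 (endoglin), a TGF-beta co-receptor. No treatment or genetic change was named for either group, and strain, age and sex were not given in the labels used here. The replicates are called biological, without a statement on animals, so the spread behind each p-value is that among these samples and may be technical, and 3 arrays a group limit the precision. The comparison asks how the stromal fractions with and without CD105 differ in bone lineage transcripts, in a series on stromal engraftment and stem cell transplantation.

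Osteoblasts arise from mesenchymal progenitors under the transcription factors Runx2 and then Sp7 (osterix), with Dlx5, a homeodomain factor, acting upstream of Sp7. They make tissue-nonspecific alkaline phosphatase (Alpl), which removes the mineralisation inhibitor pyrophosphate, and later the acidic matrix proteins Ibsp and Spp1. Cells buried in bone as osteocytes make Dmp1, Mepe and the membrane endopeptidase Phex, which act in mineralisation and in phosphate balance. Runx2, Alpl, Ibsp and Spp1 are also known from hypertrophic chondrocytes.

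All values are RMA log2 values, in which the authors corrected background, normalized the arrays and combined probes into probe sets. Differences are CD73+CD105+ minus CD73+CD105-, with moderated standard errors (SE) from a limma fit over all genes and p-values adjusted by Benjamini-Hochberg over all genes (threshold 0.05). Array medians lay between 6.27 and 6.35. Eng, which encodes CD105, had a mean of 8.06 ± 0.25 in CD73+CD105+ samples and of 6.30 ± 0.21 in CD73+CD105- samples (SD, n = 3 each; difference 1.76, limma adjusted p = 0.00322). For Nt5e, the CD73 gene, the CD73+CD105+ mean was 10.37 ± 0.08 and the CD73+CD105- mean 10.63 ± 0.12 (limma adjusted p = 0.183). The CD45 gene Ptprc stood at 4.70 ± 0.06 in CD73+CD105+ arrays and at 4.71 ± 0.05 in CD73+CD105- arrays. Both lay below 6.01, a level that 95% of 1190 smell and pheromone receptor genes do not exceed on these arrays, used here as a guide to background and called the receptor percentile. Different probe sets share no common scale, so no gene is ranked by level against another. One feature of the arrays touches every result. The average of both replicate 1 arrays lay close to that of the other 4 across probe sets (SD of the gap 0.0627). The 8 other pairings across the populations gave an SD of at least 0.202. For single genes, such as Dmp1, the gap can be larger. No label describes this, so the difference of each of the 8 genes is also given from replicate 1 alone and from replicates 2 and 3.

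The stretches before the transcription starts of Ifitm5, Ibsp, Dmp1 and Mepe are shown because Ifitm5 was one of the genes whose groups separated, and because Ibsp, Dmp1 and Mepe are neighbours on chromosome 5. In the RefSeq gene order Dspp, Dmp1, Ibsp, Mepe and Spp1 follow each other there with no other protein-coding gene between them. The arrays' files name no build, so the coordinates are those of RefSeq on GRCm38.p6. Windows were matched for 6 of the 8 measured genes. Each sequence is the 250 bases before an annotated start, 5′ to 3′ on the gene's strand, with capitals for matches on either strand to TGTGGT (the RUNX core), TAATTA (a homeodomain core), GGGCGG (the GC box bound by SP-family factors) or TATAAA (the TATA box). The lines are, in order, Ifitm5 (chr7:140950244-140950493, minus strand), Ibsp (chr5:104299037-104299286, plus strand), the outer Dmp1 start (chr5:104197325-104197574, plus strand), the inner Dmp1 start (chr5:104202367-104202616, plus strand) and Mepe (chr5:104325079-104325328, plus strand).
Ifitm5: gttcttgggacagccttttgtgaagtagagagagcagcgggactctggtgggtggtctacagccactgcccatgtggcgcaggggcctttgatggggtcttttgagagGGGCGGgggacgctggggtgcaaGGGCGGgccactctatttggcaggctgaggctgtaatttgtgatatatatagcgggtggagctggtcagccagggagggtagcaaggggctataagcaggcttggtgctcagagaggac
Ibsp: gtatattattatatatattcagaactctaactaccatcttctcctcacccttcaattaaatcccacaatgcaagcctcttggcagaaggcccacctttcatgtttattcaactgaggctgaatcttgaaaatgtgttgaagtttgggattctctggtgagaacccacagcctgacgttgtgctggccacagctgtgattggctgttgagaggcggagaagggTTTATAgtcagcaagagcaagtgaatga
Dmp1, outer start: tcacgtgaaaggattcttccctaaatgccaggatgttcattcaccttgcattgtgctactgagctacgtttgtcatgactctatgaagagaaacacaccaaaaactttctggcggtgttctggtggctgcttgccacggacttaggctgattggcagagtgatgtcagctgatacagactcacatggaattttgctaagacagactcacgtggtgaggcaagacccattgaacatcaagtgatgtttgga
Dmp1, inner start: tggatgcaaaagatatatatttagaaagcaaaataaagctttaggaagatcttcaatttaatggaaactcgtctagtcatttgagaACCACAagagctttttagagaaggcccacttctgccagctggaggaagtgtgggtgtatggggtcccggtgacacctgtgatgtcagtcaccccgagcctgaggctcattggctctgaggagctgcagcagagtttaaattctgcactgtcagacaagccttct
Mepe: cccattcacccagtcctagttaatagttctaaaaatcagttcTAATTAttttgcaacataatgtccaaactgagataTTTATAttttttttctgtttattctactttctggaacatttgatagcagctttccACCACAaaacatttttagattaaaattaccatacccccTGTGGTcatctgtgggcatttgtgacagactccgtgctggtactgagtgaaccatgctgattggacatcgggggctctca

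Ifitm5 held 2 GC boxes, which begin 142 and 119 bases before its start. Ibsp held a TATA box match on the opposite strand, beginning 28 bases before the start. Mepe held 2 RUNX core matches, 118 and 80 bases before the start, and 1 homeodomain match 208 bases before it, with a TATA match at 173. The outer Dmp1 window held none of the motifs and the inner one a RUNX core match at 164. Over all 8 windows of the measured genes the RUNX core occurred in 2, the homeodomain core in 1, the GC box in 2 and the TATA box in 3. Of 32851 windows of all genes, 14.1% held the RUNX core, 4.84% the homeodomain core, 32.7% the GC box and 12.4% the TATA box. In these windows no match to 1 motif overlaps a match to another, while 2 GC boxes of an Alpl window, which begin 15 and 10 bases before its start, share 1 base. The matches describe letters only.

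None of the 8 genes passed the threshold in limma (0 of 8, against 1.82% of all genes), and every difference was under 2-fold. The genes nearest to it were Sp7, lower in CD73+CD105+ cells by 0.35 on the log2 scale, and Ifitm5, higher by 0.39. These were also the 2 of 8 genes with an unadjusted p under 0.05 (25.0%, against 17.7% of all genes) and the 2 of 8 whose groups did not overlap (25.0%, against 23.7% of all genes). By direction, 0 of 8 passed as higher, against 1.35% of all genes, and 0 as lower, against 0.466%, while 1 gene lay wholly higher in CD73+CD105+ cells, against 10.7% of all genes, and 1 wholly lower, against 12.9%. The shares of separated genes are near those of all genes. The differences of the 8 genes had a median of 0.06, against -0.02 over all genes, and 5 lay above 0 and 3 below. Over all 19938 genes 8854 lay above 0 and 11084 below. For all 8 genes the 95% interval of the difference, not adjusted for the number of genes, lay inside a 2-fold change in either direction. This was also so for all 8 with a batch term for replicate 1 (0 of 8 passed, against 0.507% of all genes). It held too for all 8 with the replicate number as a block (0 of 8 passed, against 1.08% of all genes). Dmp1 came close to the limit, with an interval of -0.95 to 0.60 in the main fit and of -0.99 to 0.64 with the batch term. Intervals with 1 array left out were not compared with it.

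**Figure D1:**
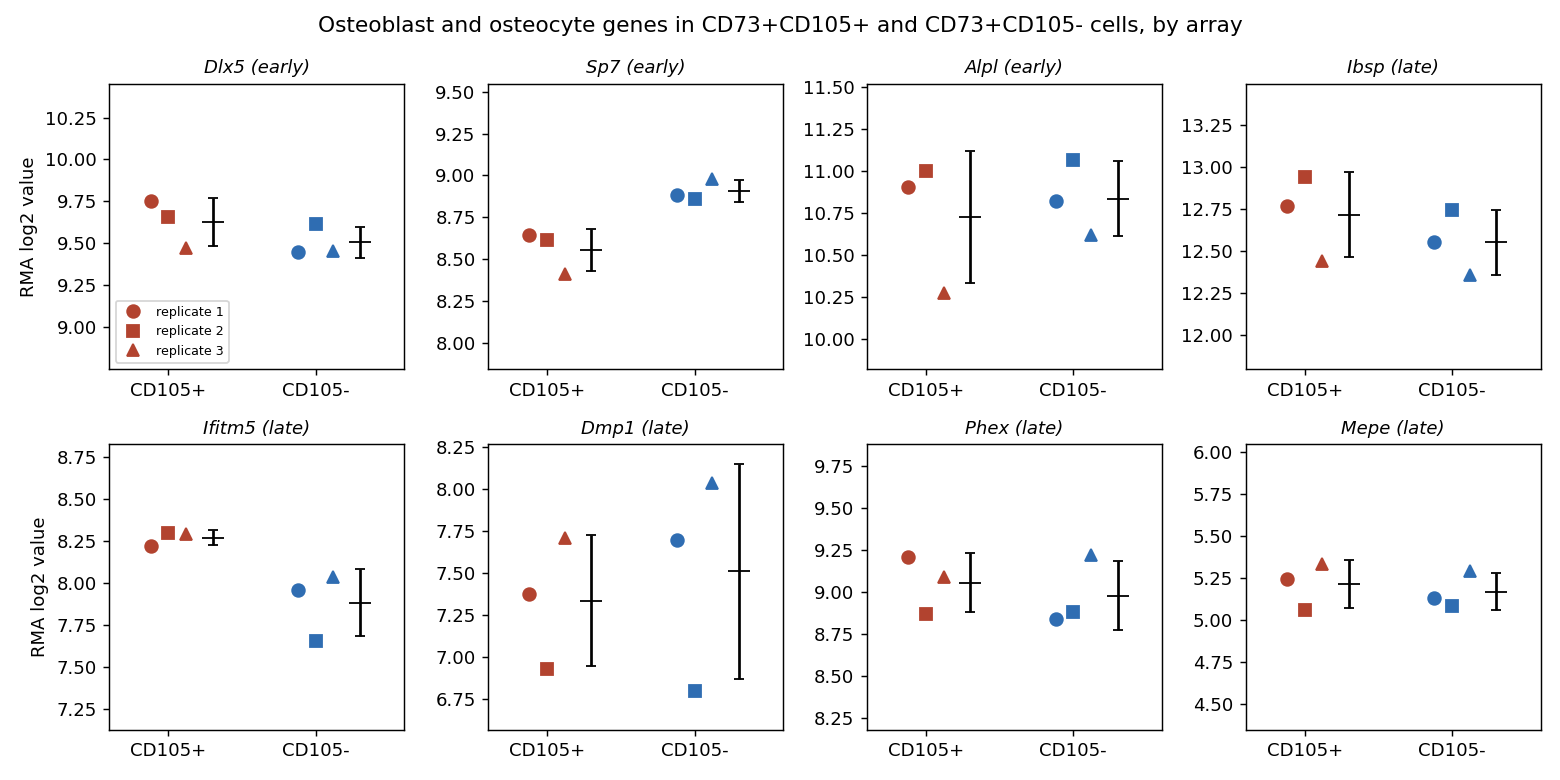
RMA log2 values (y axis, a span of equal size in every panel) of the 8 measured bone genes in CD73+CD105+ (left) and CD73+CD105- cells (right). Symbols are arrays and black bars the mean ± SD of 3 arrays. The groups separate for Sp7 and Ifitm5, and Dmp1 spreads most within a group.

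Among the early genes, Dlx5 had values of 9.75, 9.66 and 9.47 in CD73+CD105+ replicates 1, 2 and 3, against 9.45, 9.61 and 9.46 in CD73+CD105- replicates 1, 2 and 3. The groups overlapped, and the difference of 0.12 (SE 0.09, 95% interval -0.10 to 0.34) did not pass (limma adjusted p = 0.553). It was 0.30 in replicate 1 and 0.03 in replicates 2 and 3. Dlx6, the gene paired with Dlx5 in the genome and encoding a related factor, had 6.64, 6.71 and 6.96 in CD73+CD105+ cells, against 6.69, 6.24 and 6.86 in CD73+CD105- cells, also with overlapping groups (difference 0.17, limma adjusted p = 0.636).

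Sp7, the factor without which mouse osteoblasts do not mature, had values of 8.64, 8.61 and 8.41 in CD73+CD105+ cells, against 8.88, 8.86 and 8.98 in CD73+CD105- cells. All 3 CD73+CD105+ arrays lay below all 3 CD73+CD105- arrays. The mean was 8.56 ± 0.13 in CD73+CD105+ arrays and 8.91 ± 0.07 in CD73+CD105- arrays (SD, n = 3 each), a difference of -0.35 (SE 0.09, 95% interval -0.55 to -0.15) or 1.27-fold, which did not pass over all genes (limma adjusted p = 0.098). Adjusted p-values lay between 0.0637 and 0.25 in the other settings tried. The difference was -0.24 in replicate 1 and -0.41 in replicates 2 and 3.

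Alpl had values of 10.90, 11.00 and 10.27 in CD73+CD105+ cells, against 10.82, 11.07 and 10.62 in CD73+CD105- cells. Replicate 3 was the lowest array of both populations, and the groups overlapped. The difference was -0.11 (SE 0.20, 95% interval -0.59 to 0.37, limma adjusted p = 0.825). It turned to 0.12 without CD73+CD105+ replicate 3 and to 0.0066 without CD73+CD105- replicate 2, and was 0.08 in replicate 1 and -0.21 in replicates 2 and 3.

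Among the late genes, Ibsp, bone sialoprotein, had values of 12.77, 12.94 and 12.44 in CD73+CD105+ cells, against 12.55, 12.74 and 12.35 in CD73+CD105- cells. The highest array was CD73+CD105+ replicate 2 and the lowest CD73+CD105- replicate 3, and the groups overlapped. The difference was 0.17 (SE 0.15, 95% interval -0.19 to 0.52, limma adjusted p = 0.614), with 0.22 in replicate 1 and 0.14 in replicates 2 and 3.

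Ifitm5, a membrane protein of mineralising osteoblasts that is altered in a form of human brittle bone disease, had values of 8.22, 8.30 and 8.29 in CD73+CD105+ cells, against 7.96, 7.66 and 8.04 in CD73+CD105- cells. All 3 CD73+CD105+ arrays lay above all 3 CD73+CD105- arrays, and spanned 0.08, against 0.38 for the CD73+CD105- arrays. The mean was 8.27 ± 0.04 in CD73+CD105+ arrays and 7.88 ± 0.20 in CD73+CD105- arrays (SD, n = 3 each), a difference of 0.39 (SE 0.11, 95% interval 0.13 to 0.64) or 1.31-fold, which did not pass over all genes (limma adjusted p = 0.129). Adjusted p-values lay between 0.0677 and 0.301 in the other settings, and the difference was 0.26 in replicate 1 and 0.45 in replicates 2 and 3.

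Dmp1, an acidic matrix protein of osteocytes, had values of 7.37, 6.93 and 7.71 in CD73+CD105+ cells, against 7.70, 6.80 and 8.04 in CD73+CD105- cells. Replicate 2 was the lowest and replicate 3 the highest array of both populations, and the ranges, 0.78 within CD73+CD105+ and 1.24 within CD73+CD105- cells, were larger than the difference between the populations. That difference was -0.17 (SE 0.33, 95% interval -0.95 to 0.60, limma adjusted p = 0.826). It turned to 0.03 without CD73+CD105+ replicate 2 and to 0.09 without CD73+CD105- replicate 3, and was -0.33 in replicate 1 and -0.10 in replicates 2 and 3.

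Phex, the endopeptidase whose loss causes phosphate wasting, had values of 9.21, 8.87 and 9.09 in CD73+CD105+ cells, against 8.84, 8.88 and 9.22 in CD73+CD105- cells. The groups overlapped, with a difference of 0.08 (SE 0.13, 95% interval -0.23 to 0.39, limma adjusted p = 0.804). It was 0.37 in replicate 1 and -0.07 in replicates 2 and 3.

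Mepe, a matrix phosphoglycoprotein of osteocytes, had values of 5.25, 5.06 and 5.34 in CD73+CD105+ cells, against 5.14, 5.08 and 5.29 in CD73+CD105- cells. All 6 arrays lay below the receptor gene percentile of 6.01, and Mepe was the only one of the 8 genes whose group means did. RMA compresses differences near background, so the difference of 0.04 (95% interval -0.19 to 0.27, limma adjusted p = 0.858) may understate one. It was 0.11 in replicate 1 and 0.01 in replicates 2 and 3. Dspp, a matrix protein best known from dentin, lies in the same run of genes on chromosome 5. Its values ranged from 6.12 to 6.20 in CD73+CD105+ arrays and from 6.18 to 6.23 in CD73+CD105- arrays, close above the receptor percentile. The difference of Dspp was -0.05 (limma adjusted p = 0.708).

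Early and late genes were not set apart as classes by a test, since the classes are short lists chosen with earlier results known. Of the 3 measured early genes 1 had a difference above 0 and 2 below, with a median of -0.11. Of the 5 measured late genes 4 lay above 0 and 1 below, with a median of 0.08. The early median ranged from -0.25 to 0.12 when 1 array was left out, with the lowest value without CD73+CD105+ replicate 2 and the highest without CD73+CD105+ replicate 3. The late median stayed between 0.03 and 0.12, but both ends of this range are the difference of Mepe, which lay below the receptor percentile. The median of 0.08 with all arrays is the difference of Phex, which was -0.07 in replicates 2 and 3. The range is therefore no measure of how stable the late genes are as a class.

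The genes differed widely in how much they varied between arrays of 1 population. The residual SD of the fit was 0.53 for Dmp1, higher than in 99.4% of all genes or equal to it, and 0.32 for Alpl (95.7%). It was 0.23 for Ibsp (87.5%) and 0.19 for Phex (81.0%), while Ifitm5, Mepe, Dlx5 and Sp7 lay between 0.10 and 0.15 (39.7% to 65.6%). The median was 0.17 over the 8 genes and 0.12 over all genes. Dmp1 and Alpl ran in opposite directions across the arrays. In both populations Alpl and Ibsp were highest in replicate 2 and lowest in replicate 3, an order shared by 6.55% of all genes, whereas Dmp1 and Mepe were highest in replicate 3 and lowest in replicate 2, an order shared by 5.51% of all genes.

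Lists of other genes, read for these orders after the values were seen, fell to both sides, and some to neither. The order of Alpl was found in 6 of 7 chondrocyte markers, among them Acan, the large proteoglycan of cartilage, and Sox9, its master transcription factor. It was found in 3 of 8 genes of phosphate and mineral handling, including Ahsg, which lay below the receptor percentile, and in 0 of 6 bone matrix genes. Pth1r, the receptor for parathyroid hormone and PTHrP on osteoblasts and growth plate chondrocytes, and Col10a1, the collagen of hypertrophic cartilage, had it too. The order of Dmp1 was found in 4 of 6 bone matrix genes, including both type I collagen chains, in 3 of 5 fibroblast and periosteum markers, including Thy1 and Dpp4, and in 0 of 7 chondrocyte markers. Of 12 osteocyte and further late genes 0 had either order. Of 11 regulators of the lineage 2 had the order of Alpl and 1 that of Dmp1. The order of Alpl was also found in 2 of 6 reticular stroma markers, and that of Dmp1 in 2 of 7 osteoclast markers. Col1a1 deviated from its group mean by -0.28 in CD73+CD105+ replicate 2 and 0.28 in CD73+CD105+ replicate 3, and by -0.36 in CD73+CD105- replicate 2 and 0.35 in CD73+CD105- replicate 3. Alpl deviated by 0.28 in CD73+CD105+ replicate 2 and -0.45 in CD73+CD105+ replicate 3, and by 0.23 in CD73+CD105- replicate 2 and -0.22 in CD73+CD105- replicate 3. The balance of the replicate 1 arrays leaves few independent deviations, so no correlation between genes is given, and the orders are a description. The numbers are not described as pairing samples, and fewer cells of a type cannot be told apart from less RNA per cell in these sorted bulk samples.

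**Figure D2:**
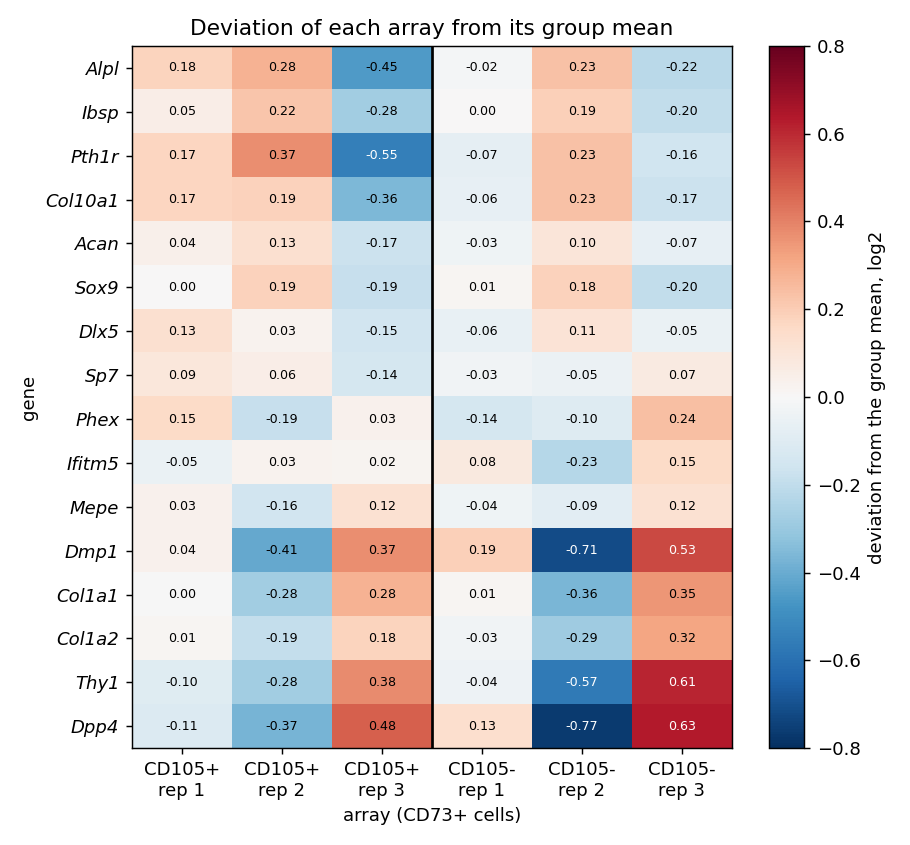
Deviation of each array (columns) from its own population's mean, in log2 units (colour and printed value), for the 8 bone genes and 8 genes of cartilage, bone matrix and fibroblasts (rows). Alpl and Ibsp run with Acan and Sox9, high in replicate 2 and low in replicate 3 of both populations, and Dmp1 runs with Col1a1 and Thy1 in the opposite sense.

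The profile of the 5 measured late genes, averaged after centring each gene, spanned 0.356 over the 6 arrays. Dmp1, with the widest ranges, weighs most in this average, and Ibsp ran in the opposite order, so the profile stands for no common pattern of the late genes. Of 12712 other genes above the receptor percentile, the closest to it by root mean square difference were Polr2c, a subunit of RNA polymerase II (0.0197), Dkk3, a secreted protein of the dickkopf family (0.0245), and Emilin3, an extracellular matrix protein (0.0266). None of the 3 passed the threshold (limma adjusted p between 0.57 and 0.779).

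Further lists placed the 8 genes in their pathway, and 1 of their 37 measured genes passed, against 1.82% of all genes. This was Reln, higher in CD73+CD105+ cells, and the call was lost with the replicate block (adjusted p = 0.0859). At an unadjusted p under 0.05 there were 10 of 37 (27.0%, against 17.7% of all genes), and the median difference was 0.03. Of 12 regulators 11 were measured and 0 passed in limma (2 with an unadjusted p under 0.05). Twist1, which restrains Runx2, had a mean of 8.78 ± 0.06 in CD73+CD105+ arrays and 8.49 ± 0.13 in CD73+CD105- arrays (difference 0.29, limma adjusted p = 0.149). Pth1r was at 10.69 ± 0.48 in CD73+CD105+ arrays and 10.98 ± 0.21 in CD73+CD105- arrays (difference -0.29, limma adjusted p = 0.568). The median difference of the regulators was 0.09, with 7 above 0 and 4 below.

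Of 9 bone matrix genes 6 were measured, and the 3 osteocalcin genes Bglap, Bglap2 and Bglap3 were not analysed here. All 6 differences lay above 0, against 8854 of all 19938 genes, but they ran from 0.02 to 0.71 (median 0.27). In limma 0 passed, and 3 of the 6 had an unadjusted p under 0.05, against 17.7% of all genes. Cdh11, the cadherin of osteoblasts and mesenchyme, had a mean of 11.38 ± 0.07 in CD73+CD105+ arrays and 10.67 ± 0.31 in CD73+CD105- arrays (difference 0.71, SE 0.15, limma adjusted p = 0.0686). Postn, a matrix protein of periosteum, differed by 0.47 (limma adjusted p = 0.151). Col1a1 and Col1a2, the type I collagen chains, differed by 0.27 and 0.25 with overlapping groups.

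Of 10 listed symbols of genes that handle phosphate and mineral, among them both Ank and Ankh, 8 were measured and 0 passed in limma. A limma unadjusted p under 0.05 was found for 2 of the 8, against 17.7% of all genes. Of these 8 differences, which ran from -0.35 to 0.03, 7 lay below 0 (median of the 8 -0.10), against 11084 of all 19938 genes. The 7 include Ahsg (-0.06), which lay below the receptor percentile in both populations. Smpd3, a sphingomyelinase needed for skeletal mineralisation, had a mean of 9.10 ± 0.20 in CD73+CD105+ arrays and 9.44 ± 0.11 in CD73+CD105- arrays (difference -0.35, limma adjusted p = 0.18). Fam20c, the secretory kinase that phosphorylates the acidic bone proteins, was at 9.66 ± 0.05 in CD73+CD105+ arrays and 9.92 ± 0.08 in CD73+CD105- arrays (difference -0.26, limma adjusted p = 0.133). In both genes all CD73+CD105+ arrays lay below all CD73+CD105- arrays. This was so for 2 of the 8 genes of the list, against 12.9% of all genes.

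Of 12 osteocyte and further late genes, all measured, 1 rose, against 1.35% of all genes, and 0 fell in limma, against 0.466%. Reln, reelin, a secreted glycoprotein best known from brain layering, had values of 6.94, 6.79 and 6.64 in CD73+CD105+ cells, against 6.21, 6.21 and 6.26 in CD73+CD105- cells. It rose by 0.56 (SE 0.09, limma adjusted p = 0.0316). The call was lost with the block, with the batch term for replicate 1 (0.0879) and without any 1 of CD73+CD105+ replicates 1 and 2 and CD73+CD105- replicates 1, 2 and 3 (0.0625 to 0.121), and held without CD73+CD105+ replicate 3 (0.0387). Ptprz1, a receptor phosphatase, differed by 0.48 and did not pass (limma adjusted p = 0.169). Sost, the osteocyte inhibitor of Wnt signals, and Fgf23, the phosphate-lowering hormone of osteocytes, differed by 0.03 and -0.04. Both are named after their values were seen. The mean of Fgf23 was 6.27 in CD73+CD105+ arrays and 6.31 in CD73+CD105- arrays, close above the receptor percentile. For Sost the mean was 6.83 in CD73+CD105+ arrays and 6.79 in CD73+CD105- arrays. RMA compresses differences near background, so the difference of Fgf23 may be understated, and neither small difference shows equal expression.

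**Figure D3:**
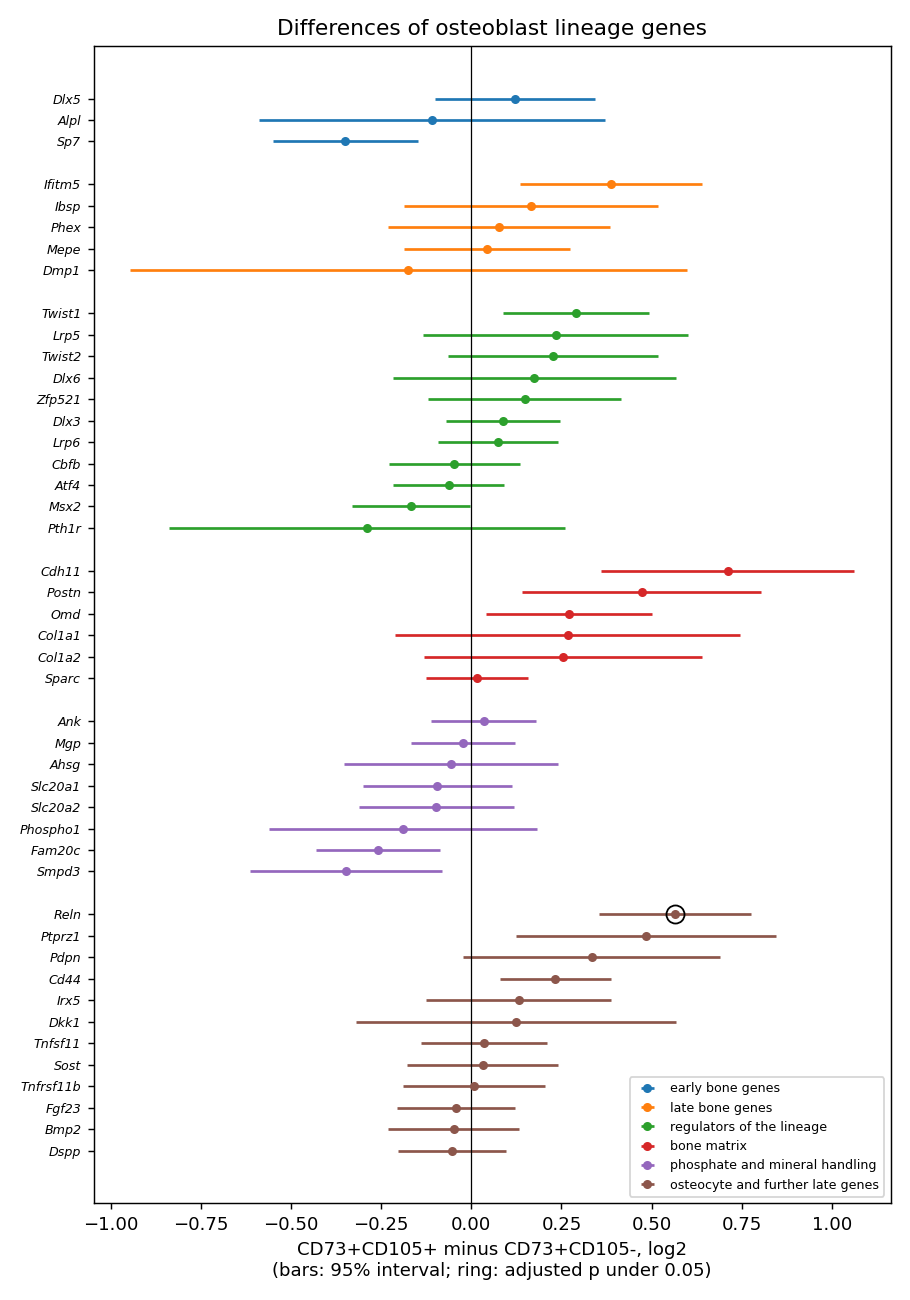
Differences (x axis, CD73+CD105+ minus CD73+CD105-, log2) with 95% intervals for the 8 bone genes and 37 further genes of the lineage (rows, coloured by list). The ring marks Reln (0.56), the gene past the threshold. The bone matrix differences lie to the right of 0 and most of mineral handling to the left, but 0 of either list passed. A limma unadjusted p under 0.05 was found for 3 of 6 bone matrix and 2 of 8 mineral genes, against 17.7% of all genes. The other intervals of these lists cross 0.

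Markers of some other cell types, mainly those of the endothelial and reticular stroma lists, differed between the same arrays. The part of any list in the values above was not tested. Summed linear levels are given for each list, but a sum weighs most the probe sets with the highest linear values, such as Acan and Hapln1 in the chondrocyte list and Ctsk in the osteoclast list, and describes those more than the list. All 7 endothelial markers rose, with a summed linear level of 2685 to 3568 in CD73+CD105+ and 341 to 434 in CD73+CD105- arrays, and 5 of the 7 passed with the batch term for replicate 1. Among 6 reticular stroma markers 5 rose, with differences of -0.17 to 1.32 over the list and summed levels of 3416 to 4150 in CD73+CD105+ arrays against 1653 to 2320 in CD73+CD105- arrays, and 1 passed with the batch term. All 7 chondrocyte markers had differences below 0 (median -0.33) and 0 passed in limma. Of the 7, 5 had a limma unadjusted p under 0.05, against 17.7% of all genes. Their summed levels were 16442 to 20091 in CD73+CD105+ and 20546 to 23613 in CD73+CD105- arrays. Matn1 (-0.61) and Col11a2 (-0.43), cartilage matrix genes, differed most in that list. The 4 hypertrophic chondrocyte markers had 0 past the threshold in limma (1 with an unadjusted p under 0.05), with Mmp13, a collagenase also made by osteoblasts, at 0.40 (limma adjusted p = 0.0516), Col10a1 at -0.20, and summed levels of 7023 to 8522 in CD73+CD105+ arrays against 7144 to 7965 in CD73+CD105- arrays.

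Of 7 osteoclast markers 1 rose, Mmp9, a gelatinase, by 1.18 (SE 0.17, limma adjusted p = 0.0226). It did not pass with the batch term (0.0642) or without CD73+CD105+ replicate 1 or 3 or CD73+CD105- replicate 1 or 2. Acp5, the tartrate-resistant phosphatase, differed by 0.37 (limma adjusted p = 0.0578). The osteoclast genes Calcr, Oscar and Dcstamp lay below the receptor percentile in both populations, and the summed level of the list was 2663 to 3103 in CD73+CD105+ and 2239 to 2536 in CD73+CD105- arrays. Of 5 measured fibroblast and periosteum markers 1 rose, Cd34 (1.45, limma adjusted p = 0.00264), and 4 did not pass, with Pi16 at 0.44 (limma adjusted p = 0.171). Whether the rise of Cd34 goes with that of the endothelial markers, all 7 of which rose, was not tested. Summed levels of the fibroblast and periosteum list were 10793 to 11824 in CD73+CD105+ arrays against 9598 to 10288 in CD73+CD105- arrays. None of 5 leukocyte markers passed (0 in limma, 1 with an unadjusted p under 0.05), and Ptprc, Itgam and Adgre1 lay below the receptor percentile in both populations. Lyz2, lysozyme, differed by 0.38 and the macrophage gene Adgre1 by -0.10, and the summed level was 217 to 231 in CD73+CD105+ and 205 to 217 in CD73+CD105- arrays. Of the erythroid markers Alas2 (-0.15) and Klf1 (-0.01) were measured, and 0 passed in limma (0 with an unadjusted p under 0.05). Both were below the percentile, with summed levels of 104 to 110 in CD73+CD105+ arrays against 108 to 118 in CD73+CD105- arrays.

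**Figure D4:**
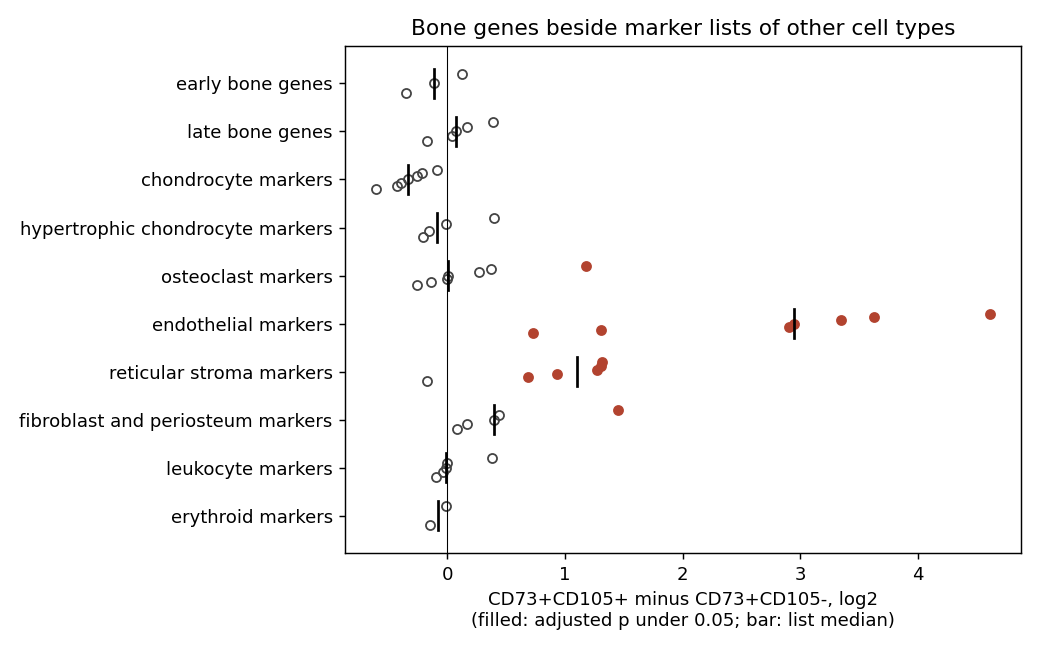
Differences (x axis, CD73+CD105+ minus CD73+CD105-, log2) of single genes (points) in the early and late bone genes and in marker lists of other cell types (rows), with list medians as bars. Filled points passed the threshold; all 7 endothelial markers did and none of the 8 bone genes did.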

How the data were processed

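Total RNA from 3 CD73+CD105+ and 3 CD73+CD105- samples of sorted mouse bone marrow cells was biotin-labelled and read on 1-colour arrays, 1 per sample. The deposited values are log2 expression values for 35556 probe sets, made by the authors with RMA, per the submitters' processing notes. The RMA software, its probe annotation and the build are not stated in the labels used. No scanner file was analysed here and no detection call was used. The platform annotation gave 1 symbol to 21789 probe sets, several to 1621 and none here to 12146. Of the resulting 19938 genes, 19856 were matched to RefSeq by Entrez ID. Differences were tested by lmFit and eBayes in limma 3.58.1 (R 4.3.3; two-sided, without a block), with Benjamini-Hochberg adjustment over all genes. Promoter windows came from RefSeq tables. The genes and lists were chosen with earlier results of these data known. The text names all 8 measured genes and, from each other list, up to 4 genes past the threshold or, where fewer than 2 passed, the 2 with the largest difference; the endothelial and reticular lists are given by counts and ranges. Outside this rule Dlx6, Dspp, Col1a1, Col1a2, Acan, Sox9, Thy1, Dpp4, Sost, Fgf23 and Cd44, and the genes named for a level near background or for their weight in a sum, were named after their values were seen. No value column was left out.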

Additional observations from a re-analysis of the deposited data

How the results depend on the processing

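In the 15 alternative settings 0 of the 8 bone genes passed the threshold. The differences of Dlx5, Sp7, Ibsp, Ifitm5 and Phex kept their direction in all of these, but that of Phex only nominally. For Phex the difference was 0.000219 without CD73+CD105+ replicate 1, and -0.07 in replicates 2 and 3 alone. When 1 array was left out, the difference ranged from -0.25 to 0.12 for Alpl, from -0.531 to 0.088 for Dmp1 and from -0.0176 to 0.121 for Mepe, and the early median from -0.25 to 0.12. Mepe had no value with either filter on dim genes. The count of all genes higher and lower in CD73+CD105+ cells was 270 and 93 in limma, 807 and 524 with array weights, 95 and 6 with the batch term for replicate 1, 190 and 25 with the replicate block, and 80 to 240 and 6 to 53 with 1 array left out. Of the 37 further lineage genes 1 passed, against 5 with array weights (Reln, Cdh11, Postn, Ptprz1 and Cd44), 0 with the batch term, 0 with the replicate block, 0 among genes above the median level, where Reln was not tested, and 0 to 1 with 1 array left out. Apart from that filter the cause was not tested. No label says that the replicate numbers pair the samples. Deviations from the group means correlated across genes by -0.883, 0.00659 and 0.104 for numbers 1, 2 and 3, but the balance of the replicate 1 arrays constrains these values, so they do not settle the pairing. The block changed no call of the 8 genes. With 3 arrays a group and no scanner background, small differences of dim genes such as Mepe were not resolved.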
